A study of Mus musculus with 17 samples.

Results

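Cyp1a2 and Cyp1a1, the 2 cytochrome P450 enzymes of the Cyp1a subfamily, were followed in the liver of Lean and Fat mice. They are 2 of the 284 mouse gene probes on a custom cDNA array for cholesterol homeostasis and drug metabolism, and were found by the gene name given to each spot. Cyp1a2 was chosen by its ratio of Lean over Fat on these same arrays, which was high, and Cyp1a1 because it is the nearest relative of Cyp1a2, so the ratios of both are described here and not tested. Each array carried 3 spots of either probe.

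The Lean and Fat lines are inbred mouse lines from 1 base population of mixed CBA, JU and CFLP background, selected over many generations for low or for high body fat. Liver RNA of 10 Lean and 10 Fat adult males, kept on maintenance chow and fasted for some hours before they were killed, was labelled with Cy3 or Cy5 and hybridised as 10 pairs, each of 1 Lean and 1 Fat mouse. The 17 arrays hold 7 pairs with both dye orientations and 3 pairs with 1 orientation (pairs 4 and 5 with Lean in Cy5, pair 7 with Lean in Cy3), on 2 series of slides of 5 pairs each, series A with pairs 5, 6, 8, 9 and 10 and series B with pairs 1, 2, 3, 4 and 7. Each body type is represented by 1 inbred line, so a difference that came with selection for body fat and one that became fixed by chance cannot be told apart.

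CYP1A2 is one of the main P450 enzymes of the liver, where it oxidises caffeine, aromatic and heterocyclic amines and estradiol. In mice it is made constantly by hepatocytes, most strongly around the central vein. CYP1A1 acts on polycyclic aromatic hydrocarbons and is barely made in a liver that has met no inducer. Both genes are induced by the aryl hydrocarbon receptor, which with its partner ARNT binds DNA elements with the core GCGTG, and neither of these regulators was analysed here.

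The 2 genes are neighbours on mouse chromosome 9, on opposite strands, with their start sites 13958 bases apart and no other annotated gene between the starts. The 250 bases before each start are shown to set the gene made constantly in liver beside the one barely made there without an inducer. They are from RefSeq, build GRCm38.p6, written 5′ to 3′ on the strand of the gene, with the receptor core GCGTG and the TATA motif TATAAA in capitals wherever they occur on either strand.
Cyp1a2, chr9:57683656-57683905, minus strand: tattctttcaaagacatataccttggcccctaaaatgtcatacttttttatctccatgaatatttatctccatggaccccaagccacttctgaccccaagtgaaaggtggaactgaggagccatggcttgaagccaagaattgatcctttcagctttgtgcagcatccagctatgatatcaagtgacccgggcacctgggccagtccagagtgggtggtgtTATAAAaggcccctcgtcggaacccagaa
Cyp1a1, chr9:57697363-57697612, plus strand: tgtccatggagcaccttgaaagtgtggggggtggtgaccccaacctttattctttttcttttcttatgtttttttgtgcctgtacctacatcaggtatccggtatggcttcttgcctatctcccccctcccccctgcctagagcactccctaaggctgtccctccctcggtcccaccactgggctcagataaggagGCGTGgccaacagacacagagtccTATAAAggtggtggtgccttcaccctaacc
Both windows hold the TATA motif once, beginning 29 bases before the start of Cyp1a2 and 30 bases before that of Cyp1a1. The core GCGTG occurs once before Cyp1a1, beginning 54 bases from its start, and not in the window of Cyp1a2. Sequence outside these windows was not searched for either gene, and binding of the receptor was not tested. Of 32851 promoter windows of this length, 12.4% hold TATAAA and 28.2% hold GCGTG on either strand, and the 2 motifs do not overlap in either window.

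Cyp1a2 gave a bright signal in both lines. After subtraction of the local background, the mean of its 3 spots ran from 1456 to 42930 intensity units in the Lean channel over the 17 arrays, with a median of 3868, and from 972 to 17780 in the Fat channel, with a median of 2639. These values mix the dyes and do not compare the lines. Lean was in Cy5 on 9 arrays and in Cy3 on 8. The median net signal of all gene spots had a median over arrays of 252 in Cy5 and 69.3 in Cy3. Spots whose foreground lay over 2 standard deviations of the local background above that background are called above background. By this measure 51 of 51 Lean spots and 50 of 51 Fat spots of Cyp1a2 were above background. The missing one lay in a saturated region of 1 array, which is taken up with pair 10.

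Cyp1a1 was at the edge of detection. Its net signal ran from 8.35 to 322 intensity units in Lean, with a median of 51.6, and from 6.29 to 302 in Fat, with a median of 40.8. Only 23 of 51 Lean spots and 20 of 51 Fat spots were above background. Most of its spots were above background on 8 of 17 arrays for Lean and on 6 for Fat, and this depended on the dye: the channel in Cy5 passed on 11 arrays and the channel in Cy3 on 3. The ratios of Cyp1a1 therefore rest on little signal, and a difference between the lines was not detectable on the arrays where neither channel passed.

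The log2 ratio of Lean over Fat of each spot, after normalization of the array on its spike-in RNAs, was averaged over the spots of a probe and then over the arrays of a pair. For Cyp1a2 the 10 pair ratios were 0.02, 0.33, 0.62, 0.92, 0.59, 0.95, 0.38, 0.48, 0.16 and 0.61 for pairs 1 to 10. All 10 were above 0, that of pair 10 only through 1 spot taken up below. The mean was 0.51 with an SD of 0.30 and a standard error of 0.09 (n = 10 pairs), a 1.42-fold higher level in Lean. A ratio above 0 in all 10 pairs was found for 2.11% of the 284 gene probes, one above 0 in at least 9 pairs for 5.28% and a mean above 0 for 69.4%, and the mean ratio of Cyp1a2 was the 5th highest of them. The median over all gene probes was 0.04.

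Within Lean against Fat, 10 of the 284 gene probes passed the limma test at an adjusted p of 0.05, which is 3.52%, with 8 higher in Lean, or 2.82%, and 2 lower, or 0.704%. An unadjusted p under 0.05 was found for 15.1%. With each array centred on its median in place of the spike-in normalization, 5 passed, 3 higher and 2 lower. The 284 include Cyp1a2 and Cyp1a1, and this contrast is the one that chose Cyp1a2, so the counts are background only.

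**Figure D1:**
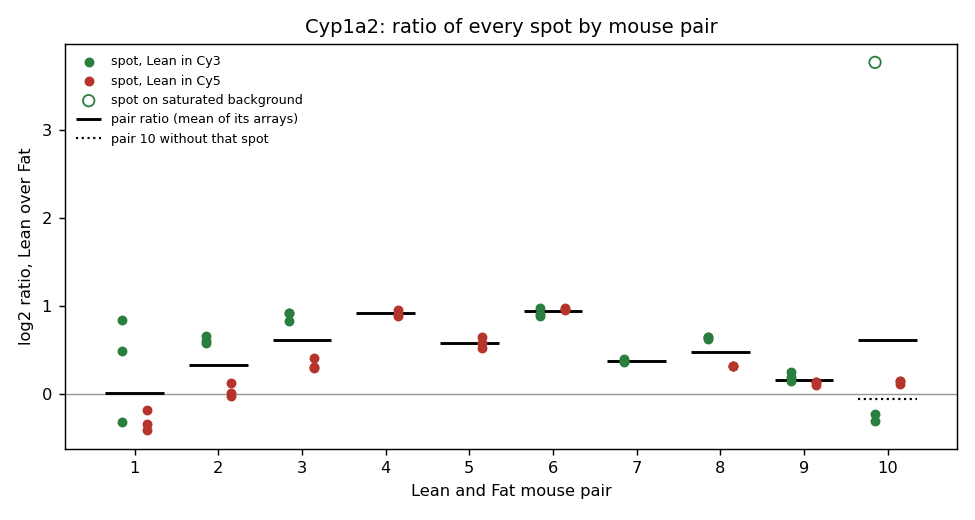
Log2 ratio of Lean over Fat of every Cyp1a2 spot (points, green with Lean in Cy3 and red with Lean in Cy5) by mouse pair, with the pair ratio as a black line. The open circle at 3.77 is the spot of pair 10 on saturated background, and the dotted line at -0.06 is the ratio of pair 10 without it.

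The ratio of pair 10 turned on 1 spot. On its array with Lean in Cy3, the third Cyp1a2 spot lay where the Fat channel stood at the top of the scanner scale, 65535, in the spot and in the surrounding background alike. That spot had a log2 ratio of 3.77, whereas the other 2 spots of the same array gave -0.22 and -0.30.

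This region covered 55 of the 855 gene spots of that array, all in block 5 of the print, and occurred on no other array. Left without such spots, pair 10 had a ratio of -0.06, and the mean over the 10 pairs of Cyp1a2 was 0.44 with an SD of 0.34 and a standard error of 0.11, a 1.36-fold higher level in Lean, above 0 in 9 of 10 pairs. The mean ratio was again the 5th highest of 284. This exclusion, by saturated background, was added after the values were seen. Leaving out the saturated spots themselves was planned, and gave the same mean of 0.44 with 9 of 10 pairs above 0. In the value table of the authors the mean of Cyp1a2 was 0.41, with 8 of 10 pairs above 0 and pair 10 at -0.09. With median centring 8 of 10 pairs were above 0.

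Pairs 4 and 6 had the highest Cyp1a2 ratios, 1.90-fold and 1.93-fold. In pair 6 the array with Lean in Cy3 gave 0.93 and the one with Lean in Cy5 gave 0.97, and the 6 spots lay between 0.89 and 0.98. Pair 4 was hybridised in 1 orientation, with spots from 0.89 to 0.96. The ratio of these 2 pairs thus did not depend on single spots.

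Pair 1, with the lowest ratio of Cyp1a2, had opposite signs in its orientations, 0.34 with Lean in Cy3 and -0.31 with Lean in Cy5. On the first of these arrays the spots themselves disagreed, at 0.49, -0.31 and 0.84, and their net Fat signal was 24830, 4111 and 6285 intensity units. Over all arrays, the SD between the 3 spots of Cyp1a2 had a median of 0.05 and was under 0.1 on 14 of 17 arrays, so the array of pair 1 and that of pair 10, at an SD of 0.59 and 2.32, stood apart. The SD between the 10 pairs was 0.30, against a median of 0.21 over all gene probes.

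Levels of single mice were read by putting the 2 channels of all arrays on a common scale of normalized log2 intensity, in which dye bias is only partly cancelled. For Cyp1a2 the Lean mice ran from 11.89 through a median of 12.42 to 13.03, and the Fat mice from 11.28 through 11.95 to 12.65. The mean was 12.42 with an SD of 0.35 in Lean and 11.91 with an SD of 0.35 in Fat (n = 10 each). The lines overlapped: 2 of 10 Lean mice were above the highest Fat mouse and 4 of 10 Fat mice were below the lowest Lean mouse. Without the spot on saturated background, the Lean mouse of pair 10 stood at 11.53 and the Fat mouse at 11.59, and no Fat mouse was below the lowest Lean mouse. Pair 7 was high in both its mice, 13.03 in Lean and 12.65 in Fat, the highest of either line. Both were read from 1 array, so a high array and 2 high mice cannot be told apart. In whole liver, more RNA per hepatocyte and more cells that make it cannot be told apart.

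**Figure D2:**
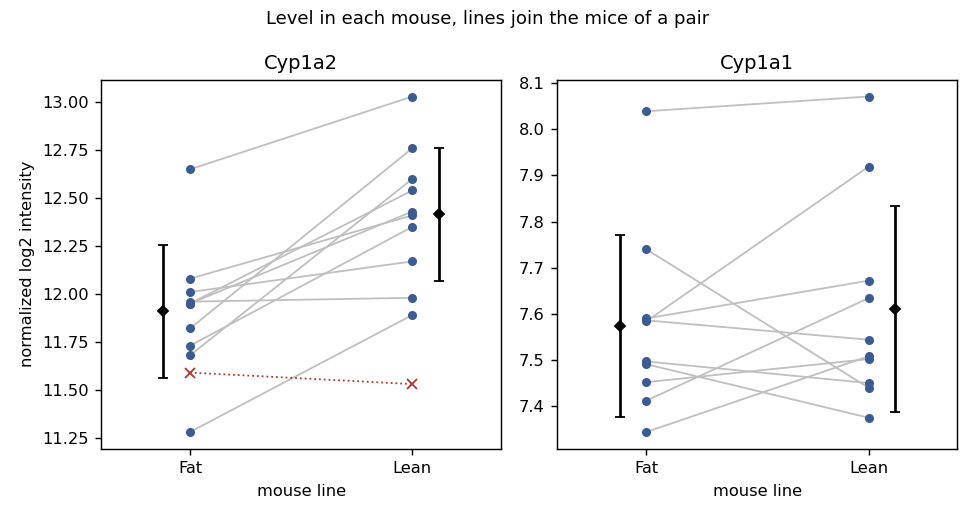
Normalized log2 intensity of Cyp1a2 and Cyp1a1 in each Fat and Lean mouse (blue points), with grey lines joining the mice of a pair and black diamonds for mean and SD (n = 10). For Cyp1a2 all grey lines rise to Lean, while the red crosses show pair 10 without the spot on saturated background, 11.59 in Fat and 11.53 in Lean.

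The ratio of Cyp1a2 was also set side by side in the 2 dye orientations. With Lean in Cy3 the 8 array ratios ran from 0.20 to 1.09 with a mean of 0.64, and with Lean in Cy5 the 9 array ratios ran from -0.31 to 0.97 with a mean of 0.35. The 1.09 is the array of pair 10 with the spot on saturated background, and without that spot the arrays with Lean in Cy3 ran from -0.26 to 0.93 with a mean of 0.47. In 6 of the 7 swapped pairs the array with Lean in Cy5 gave the lower value, and pair 6 alone went the other way, by 0.04. Without that spot pair 10 went the other way too, by 0.40, which leaves 5 of 7. The dye effect, taken as the difference of Lean in Cy5 minus Lean in Cy3 divided by 2, was tested, though the spot on saturated background enters both it and the ratio that chose Cyp1a2. It was -0.22 for Cyp1a2 (limma standard error 0.10, adjusted p = 0.094 over all probes), and the two-sided exact sign-flip test over the 7 pairs gave p = 0.0312, or 0.125 adjusted over the 4 exact tests made here, where 0.0156 is the smallest p that 7 pairs allow. It did not pass after adjustment. The unadjusted exact p rested on the spot on saturated background, and without it the dye effect was -0.12 with an exact sign-flip p of 0.156 (limma adjusted p = 0.242).

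By the same limma test 6 of 284 gene probes passed, or 2.11%. That count moved with single pairs, from 0 without pair 2 or pair 8 to 78 without pair 10, and was 90 without the spots on saturated background. The direction of the dye effect of Cyp1a2 depended on the normalization: with loess on the gene spots it was 0.03 and with median centring 0.69, the latter past the threshold (limma adjusted p = 0.0115).

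For Cyp1a1 the dye effect ran the opposite way, 0.17 (limma standard error 0.10, adjusted p = 0.167; exact sign-flip p = 0.0938, or 0.188 adjusted over the 4 tests). It did not pass, was positive in 5 of 7 pairs, and turned to -0.02 with loess on gene spots and -0.30 with median centring. Plain background subtraction raised it to 0.67 (limma adjusted p = 0.0233). The array ratios of Cyp1a1 had a mean of -0.13 with Lean in Cy3 (8 arrays) and 0.18 with Lean in Cy5 (9 arrays). A dye effect cancels in the mean of the 7 swapped pairs, and it does not in pairs 4, 5 and 7.

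**Figure D3:**
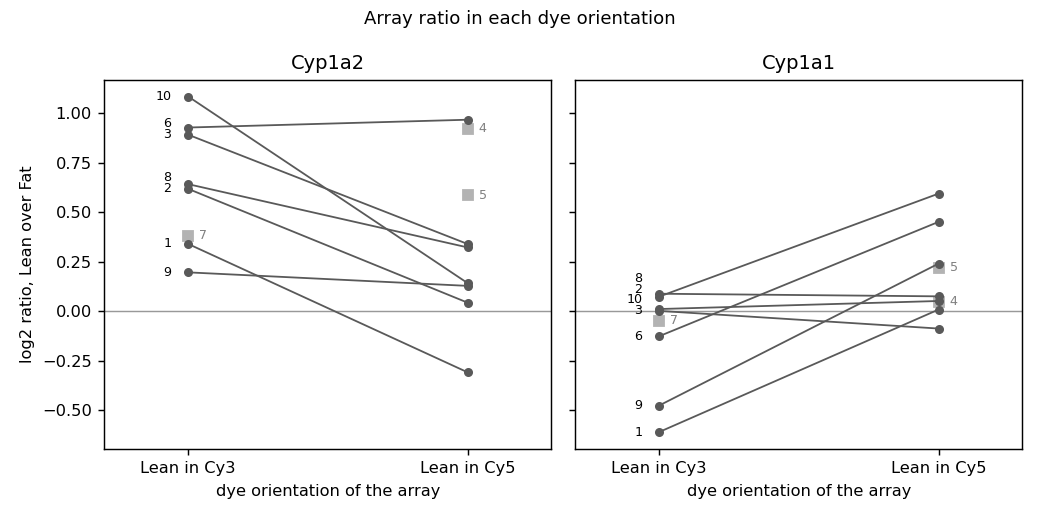
Array log2 ratio of Lean over Fat with Lean in Cy3 and with Lean in Cy5 for Cyp1a2 (left) and Cyp1a1 (right), lines joining the 2 arrays of a swapped pair, numbers giving the pair and grey squares the pairs with 1 orientation. For Cyp1a2 6 of 7 lines fall to Lean in Cy5, that of pair 10 only through its spot on saturated background, and for Cyp1a1 5 of 7 rise.

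With the main processing Cyp1a1 showed no such lead of Lean. Its pair ratios were -0.30, 0.33, -0.04, 0.05, 0.22, 0.16, -0.05, 0.08, -0.12 and 0.03 for pairs 1 to 10. Of these 6 were above 0 and 4 below, and the mean was 0.04 with an SD of 0.18 and a standard error of 0.06 (n = 10 pairs), so that the spread between pairs exceeded the mean. With loess on the gene spots the mean was -0.0029 and with median centring -0.07, on the other side of 0. With plain background subtraction it was 0.32 with a standard error of 0.20. The offset of 50 in the main background correction was near the median net signals of Cyp1a1, 51.6 in Lean and 40.8 in Fat. The effect of that offset on its ratios was not tested by itself. Cyp1a1 ranked 146th of 284 by its ratio. The 95% interval of the mean over pairs ran from -0.09 to 0.17 and covers the spread between pairs only.

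The extreme pairs of Cyp1a1 each came from 1 bright spot. In pair 1, with Lean in Cy3, the first spot had a net Fat signal of 845 intensity units where the other 2 had 38.0 and 22.2, and its log2 ratio was -1.75 against -0.04 and -0.04. In pair 2, with Lean in Cy5, the second spot had a net Lean signal of 867 where the others had 39.1 and 61.6, and its ratio was 1.59 against 0.18 and 0.01. Taking the median of the spots gave a mean of 0.05 over the 10 pairs. Pairs 5 and 6, the next highest, had spots that lay close together within each array, from 0.20 to 0.23 in pair 5 and from 0.35 to 0.60 in pair 6 with Lean in Cy5, but the array of pair 6 with Lean in Cy3 gave -0.13.

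**Figure D4:**
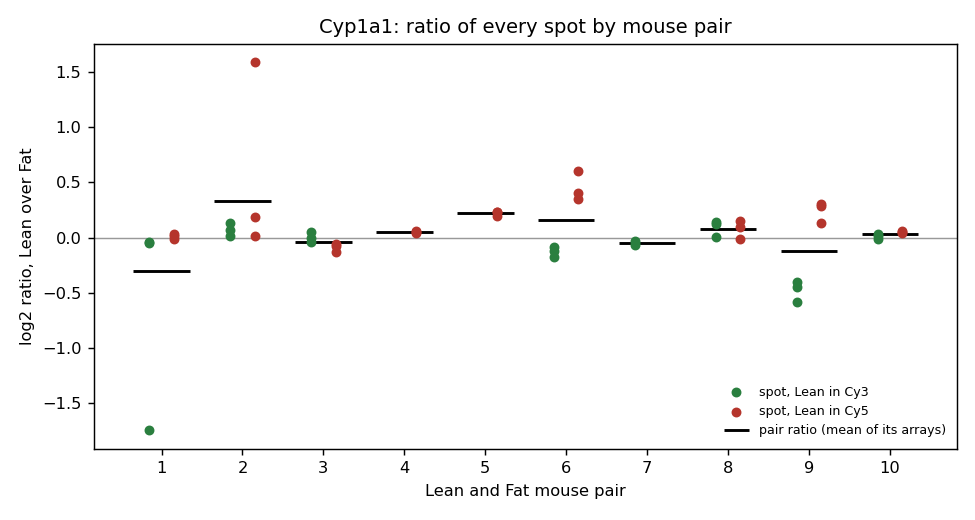
Log2 ratio of Lean over Fat of every Cyp1a1 spot (points, green with Lean in Cy3 and red with Lean in Cy5) by mouse pair, with the pair ratio as a black line. Single spots at -1.75 in pair 1 and 1.59 in pair 2 set the lowest and the highest pair ratio, -0.30 and 0.33.

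In the mice, Cyp1a1 had a normalized log2 intensity of 7.61 with an SD of 0.22 in Lean and 7.57 with an SD of 0.20 in Fat (n = 10 each). The lines overlapped almost wholly, from 7.38 to 8.07 in Lean and from 7.34 to 8.04 in Fat. The highest mouse of both lines was in pair 10, whose mice were read from the same arrays.

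Between the 2 genes, the pair ratio of Cyp1a2 exceeded that of Cyp1a1 in 9 of 10 pairs, by 0.47 on average with an SD of 0.26, and in 8 of 10 pairs without the saturated background. Pair 2, in which the bright Cyp1a1 spot fell, was the exception with all spots. Cyp1a2 was chosen by its high ratio and Cyp1a1 was at the edge of detection, so the gap is a description only. With plain background subtraction the means were 0.46 for Cyp1a2 and 0.32 for Cyp1a1. The ratios of the 2 genes had a Pearson r of 0.50 and a Spearman rho of 0.42 over the 10 pairs, as a description. The r fell to 0.08 without pairs 1 and 6, the 2 pairs farthest from the median of Cyp1a2, and the median r of Cyp1a2 with all gene probes was 0.34. Ratios of 1 array share its dyes, its hybridization and its normalization.

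The slide series gave like means for Cyp1a2. Series A had a mean ratio of 0.56 with an SD of 0.28 (n = 5) and series B 0.45 with an SD of 0.34 (n = 5), all 5 pairs of each above 0. The difference of 0.11 (limma standard error 0.18, adjusted p = 0.934; two-sided exact permutation p = 0.603) was within the spread of the pairs, and turned to -0.03 without saturated spots, where series A had a mean of 0.43 and 4 of 5 pairs above 0. For Cyp1a1 the means were 0.08 in series A and -0.00067 in series B, a difference of 0.08 (limma adjusted p = 0.934; exact permutation p = 0.524). No gene probe differed between the series at an adjusted p of 0.05 by limma, or 0% of 284, and 11 had an unadjusted p under 0.05.

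Cyp1b1, the other CYP1 gene on the array, is made chiefly outside the liver and was near background here. Its spots were mostly above background on 6 of 17 arrays for Lean and 5 for Fat. The mean ratio was 0.02 with an SD of 0.10 (n = 10 pairs; limma adjusted p = 0.811), and turned to -0.03 with loess on the gene spots, -0.14 with median centring and -0.01 in the value table of the authors.

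None of the 16 other drug metabolism P450s passed the limma test between the lines in either direction, beside the 3.52% of all gene probes. Of the 16, 6 had an unadjusted limma p under 0.05, beside 15.1% of all gene probes. Their mean ratios lay below 0 for 11 and above 0 for 5, where 69.4% of all gene probes were above 0. The median of the 16 was -0.11 against 0.04 over all gene probes. With loess on the gene spots 12 lay below 0 and with median centring 9, and none passed under either. The paper cautions that its probes separate poorly the similar P450s it lists as changed, with Cyp1a2 among those listed. It names the Cyp2a, Cyp2b, Cyp2c and Cyp3a probes as cross-reacting with relatives. Such a ratio may therefore not belong to the named gene alone. The lowest of the 16 was Cyp3a41, of the steroid- and drug-oxidising CYP3A subfamily, at -0.45 with a limma standard error of 0.16 (adjusted p = 0.214). It too had a spot on the saturated background of pair 10, without which it was at -0.50 (limma adjusted p = 0.0704). The highest was Cyp2c40 at 0.24 with a standard error of 0.11 (limma adjusted p = 0.322). All 16 mean ratios lay below the 0.51 of Cyp1a2, and below its 0.44 without the saturated background. Cyp1a2 was chosen by its high ratio, the 5th highest of 284, so most gene probes lay below it too.

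**Figure D5:**
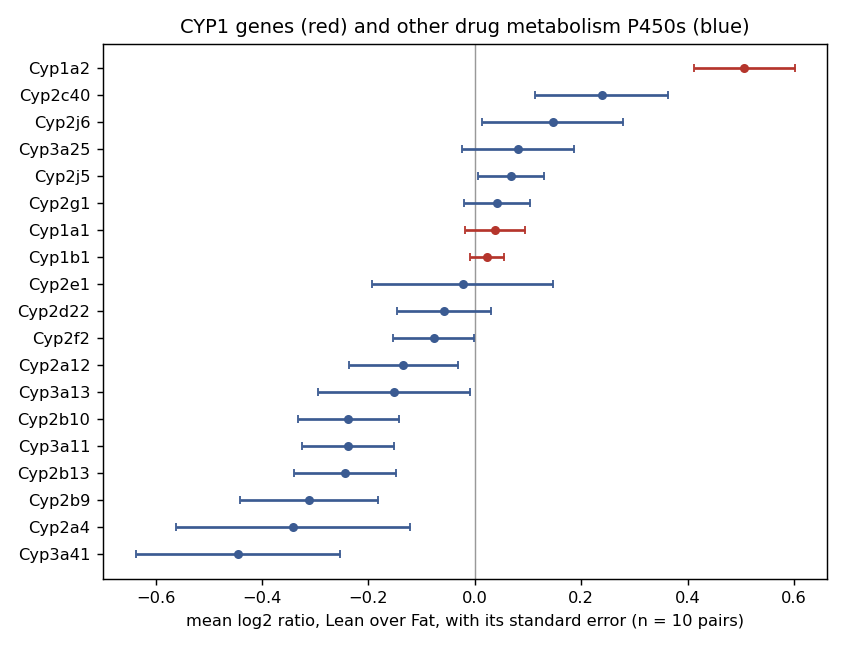
Mean log2 ratio of Lean over Fat with its standard error over 10 pairs for the 3 CYP1 genes (red) and 16 other drug metabolism P450s (blue). Cyp1a2, which was chosen by its high ratio, stands highest at 0.51. Cyp1a1 and Cyp1b1 lie near 0 at 0.04 and 0.02, and 11 of the 16 others lie below 0.

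None of the listed genes that, like Cyp1a2, are known to be made most around the central vein passed, beside 3.52% of all gene probes. Of 6 on the list, 1 was above 0 and 5 below, with a median of -0.10, where 69.4% of all gene probes were above 0. With median centring 3 of the 6 were below 0 and the median was 0.01. Cyp7a1, the first enzyme of bile acid synthesis, was the highest at 0.15 (limma adjusted p = 0.546), and Cyp2a4, a steroid hydroxylase, the lowest at -0.34 (limma adjusted p = 0.452). Each had a spot on the saturated background of pair 10, and without it they were at 0.06 and -0.40. Of 4 genes known from around the portal vein none passed, beside the same 3.52%. They ran from 0.12 for Apoa4, an apolipoprotein (limma adjusted p = 0.471), down to -0.71 for G6Pase, the last enzyme of glucose release (limma adjusted p = 0.102). With its spot on saturated background left out, G6Pase was at -0.78 and passed (limma adjusted p = 0.0333).

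The 6 regulators known to act on Cyp1a genes or on the same P450s lay between -0.15 and 0.16. None passed by limma, beside 3.52% of all gene probes, or had an unadjusted p under 0.05, beside 15.1%. Nr3c1, the glucocorticoid receptor, was at 0.16 (adjusted p = 0.440), and at 0.08 without the saturated background. Hif1a, which shares the partner ARNT with the aryl hydrocarbon receptor, was at 0.08 (adjusted p = 0.577).

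Sp1, a general activator, was at 0.03 (limma adjusted p = 0.811), Hnf4a, a nuclear receptor of hepatocytes, at 0.01 (adjusted p = 0.964; -0.07 without the saturated background), and Rxra, the partner of many nuclear receptors, at -0.01 (adjusted p = 0.940). Nr1i3, the constitutive androstane receptor that drives Cyp2b genes, was lowest at -0.15 (adjusted p = 0.584). These are mRNA ratios and say nothing of the activity of the proteins. Of the heme enzymes, Alas1, the first enzyme of heme synthesis, was at -0.18 (limma adjusted p = 0.755) and Hmox1, which breaks heme down, at -0.12 (adjusted p = 0.541).

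The pattern of Cyp1a2 over the 10 pairs was most like that of Nr5a1, with a Pearson r of 0.83 and a Spearman rho of 0.75. Next came Ucp-2 (r = 0.81, rho = 0.71), Cyp2g1 (r = 0.79, rho = 0.72), Nr1a2 (r = 0.79, rho = 0.67) and Per3 (r = 0.77, rho = 0.76). Their own mean ratios were small, from 0.01 to 0.05. Ucp-2 was above background on 2 arrays for Lean and 1 for Fat and Per3 on 3 and 1, so that their ratios are mostly background, while Nr5a1, Cyp2g1 and Nr1a2 were above it on 8 to 14 arrays per line. The lowest r were those of Prkaca at -0.65 and Insig1 at -0.64. For the 5 highest, r was 0.59 to 0.78 with all pairs but no saturated background.

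The likeness did not hold under other settings: with median centring none of the 5 stayed among the 5 highest and Ucp-2 had an r of -0.82. For Cyp1a1, the highest r were those of Cyp20a1 at 0.92 and c-Fos at 0.91. All of these are the extremes of 283 probes over 10 pairs and are given as a description.

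All 7 hepatocyte markers were above background on all 17 arrays in both lines, among them Alb1, Apoa1 and Fgb. Of them Cyp8b1, a bile acid enzyme of hepatocytes, passed at 0.52 (limma adjusted p = 0.00208) and the others did not. The adipocyte genes Lep and Retn were above background on 3 to 5 arrays per line and Adipoq on 12 for Lean and 11 for Fat, with ratios from 0.01 to 0.02. The macrophage gene Msr1 was above background on 2 arrays per line, the 4 endothelial genes on 1 to 15 and the 3 steroidogenic genes on 7 to 16, and none of these passed. Over all arrays, 34.9% to 78.8% of the gene spots were above background in both channels.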

How the data were processed

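The authors measured Steroltalk v2 array images in Array-Pro Analyzer and deposited the intensity of every spot and of the background around it, not normalized. A deposited table of log2 ratios, normalized by the authors in OWNormalize within Orange, was used as an alternative only. Its columns correlated with the ratios computed here at r of 0.431 to 0.984 and had medians from -0.46 to 0.60. The 0.431 was the array of pair 10 with the saturated region, and the next lowest r was 0.844. The deposited table holds Cyp1a2 on 17 arrays and Cyp1a1 on 10. On every array the scanner channel marked as sample was read as Lean and the one marked as reference as Fat. The dye orientation was taken from the sample labels.

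Pixel means were background-corrected by normexp (offset 50) and normalized on luciferase and calibration spike-ins (LOWESS, span 0.3) with limma 3.58.1 in R 4.3.3. Ratios were averaged over spots and then over a pair's arrays. The limma test used probes with at least 5 pairs, two-sided, Benjamini-Hochberg over 284 mouse gene probes, and the 5 human probes were left out. Each array has 1440 spots, and the number of mouse pairs limits the precision. Levels of mice used Aquantile scaling. Scripts were tested on simulated data. The methods' t-test, other background corrections, normalizations, filters and pair subsets were tried as alternatives.

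The members and gene lists were chosen with earlier results of these data known. Named were both members and Cyp1b1, of each list the passing genes or the highest and lowest ratio, all regulators except 1 that is not reported here, and the 5 highest and 2 lowest correlations with Cyp1a2 and the 2 highest with Cyp1a1. The cDNA sequence of the probes was not used here, so binding of transcripts of one Cyp1a gene to the probe of the other was not tested. No genome build applies to the intensities.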

Additional observations from a re-analysis of the deposited data

Results flagged for a closer look

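None of the 12 sets of pair ratios, array ratios, dye effects and mouse levels of Cyp1a2 and Cyp1a1 held a sample farther from the others than Dixon's 95% limit, and neither gene differed between the slide series by limma after adjustment.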

How the results depend on the processing

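The mean ratio of Cyp1a2 stayed above 0 under all 30 alternatives, from 0.39 (saturated spots left out, with loess on gene spots) to 0.62 (median centring), and from 0.46 to 0.56 with each pair left out in turn. That of Cyp1a1 was above 0 in 25 of 30, from -0.07 to 0.32, the latter with plain background subtraction, and from 0.01 to 0.08 with each pair left out. The settings chosen after the data were seen were the median of background pixels, the removal of spots on saturated background, and those that combine the removal of saturated spots with another choice or apply it to the dye effect, the slide series and the likeness.

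The number of gene probes that passed between the lines, 10 as reported, was 6 with plain background subtraction, 5 with median centring (3 higher and 2 lower, also without saturated spots), 5 with the 7 swapped pairs, 3 in slide series A, 2 in series B, 5 in series A without saturated spots, 18 with array weights (15 higher and 3 lower), 6 by the methods' t-test after Benjamini-Hochberg and 35 unadjusted, and 7 to 11 with each pair left out. With the authors' values 12 passed, 8 higher and 4 lower, and without background subtraction 15, 8 higher and 7 lower.

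The dye effect of Cyp1a2 was 0.034 with loess on gene spots and 0.69 with median centring, that of Cyp1a1 -0.016 and -0.30, and 0.67 with plain subtraction. The cause was not tested. The probes with a dye effect that passed, 6 as reported, were 103 with plain subtraction, 137 without subtraction, 0 with loess, 150 with median centring, 26 without dim spots, 59 with the median of spots, 92 without saturated spots, 90 without spots on saturated background, and 0 to 78 with each swapped pair left out.

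The difference between slide series of Cyp1a2 was -0.046 with the value table, -0.029 without saturated spots and -0.0040 without pair 1, within -0.0040 to 0.22 over the pairs left out. That of Cyp1a1 was -0.12 with median centring. Of the 5 probes most like Cyp1a2, 1 was kept with loess, 0 with median centring and 2 without saturated spots. The tests are paired by design, since each array sets 1 Lean against 1 Fat mouse. With the 17 arrays fitted one by one, the pair as a random block and a dye term, the mean of Cyp1a2 was 0.49 and 15 probes passed. The low signal of Cyp1a1 limits its ratio.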
